A study of Macaca fascicularis with 86 samples.

Results

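The genes described here are 40 listed genes of the cell division cycle, 20 that serve DNA replication in S phase and 20 that serve mitosis. They were looked up by symbol in a table of 17023 genes measured in 86 small regions of gastrulating crab-eating macaque (Macaca fascicularis) embryos. Of the 40, 38 had a row, all 20 replication genes and 18 mitotic genes; BUB1B and NUSAP1 were not analysed here. All 38 passed the filter on low values.

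The regions came from 1 embryo at stage E20 and 2 embryos at stage E18. The labels name no genotype or treatment, and all 3 embryos are described as embryonic tissue of this species. Each region was cut by laser from a frozen section and held 5 to 50 cells, so a value is an average over those cells. The E20 embryo gave 36 regions in 7 numbered sections, E18 embryo 1 gave 15 regions in 4 sections and E18 embryo 2 gave 35 regions in 6 sections. Polyadenylated RNA was sequenced by Geo-seq, a method for very small captured samples, and the level of each gene was deposited in TPM, a measure of transcript abundance that is already corrected for transcript length. TPM keeps no read counts, so the depth of each region is unknown, and a gene is only said to be listed at 0. The number of genes with at least 1 TPM was 6194 to 10950 in the E20 embryo, 7815 to 11516 in E18 embryo 1 and 11091 to 13958 in E18 embryo 2. In such pooled regions, fewer dividing cells and less of a transcript per cell cannot be told apart.

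Before S phase, CDC6 and CDT1 load the MCM2 to MCM7 ring onto replication origins, a step called licensing. CDC45 and the GINS subunits then turn the ring into the active helicase, POLA1 starts new strands, the RFC complex loads the PCNA clamp, and FEN1 trims the Okazaki fragments. RRM1, RRM2 and TYMS make the deoxynucleotides, and cyclin E (CCNE1) drives entry into S phase. In mitosis, CDK1 with cyclins A and B drives entry, the PLK1 and Aurora kinases build and correct the spindle, BUB1 and TTK act in the spindle checkpoint, kinesins move chromosomes and split the cell, and CDC20 activates the anaphase-promoting complex that ends the phase. The epiblast is known for short cell cycles around gastrulation, described in mouse and rat.

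Across the 86 regions, PCNA had the highest mean level among the replication genes at 134.2 TPM, and CDC6 had the lowest at 6.23 TPM. TOP2A, the topoisomerase that untangles chromosomes, was the highest mitotic gene at 136.3 TPM, and the kinesin KIF11 was the lowest at 20.7 TPM. The median over genes of the mean level was 38.9 TPM for the replication set and 56.3 TPM for the mitotic set. Detection was uneven: 4 of 20 replication genes and 13 of 18 mitotic genes had at least 1 TPM in every region. FEN1 was below 1 TPM in 18 of 86 regions, GINS1 in 15, CDT1 in 12 and CDC6 in 10. These low values lay mostly in the early-numbered sections of the E20 embryo, where FEN1 was below 1 TPM in 16 of 28 regions and GINS1 in 13 of 28.

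The level of the replication genes depended on the section of the E20 embryo. In sections 6 and 7, the mean log2(TPM + 1) over the replication genes was 5.22 ± 0.85 (SD, n = 8 regions), against 3.85 ± 0.69 in sections 1 to 5 (n = 28). The same mean was 5.14 ± 0.88 in E18 embryo 1 (n = 15), then 5.15 ± 0.77 in E18 embryo 2 (n = 35). Single regions ran between 3.69 and 6.24 in E20 sections 6 and 7 and between 2.75 and 5.32 in sections 1 to 5, so the groups overlapped. The mean of sections 6 and 7 lay beside those of the E18 embryos.

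The mitotic genes had closer means. Their mean was 5.36 ± 1.02 in E20 sections 6 and 7, 4.94 ± 0.61 in E20 sections 1 to 5, 5.80 ± 0.47 in E18 embryo 1, then 5.86 ± 0.71 in E18 embryo 2. The gap between the sets therefore varied within the E20 embryo. The replication mean minus the mitotic mean was -0.14 ± 0.32 in sections 6 and 7 and -1.09 ± 0.48 in sections 1 to 5, with -0.66 ± 0.52 in E18 embryo 1, then -0.71 ± 0.25 in E18 embryo 2. It was above 0 in 2 of 86 regions, both of them in E20 sections 6 and 7. Over regions, the gap had a Pearson's r with the number of detected genes of 0.71 in the E20 embryo (36 regions), 0.76 in E18 embryo 1 (15 regions) and -0.10 in E18 embryo 2 (35 regions), given as a description. The part of gene detection in the gap was not tested.

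**Figure D1:**
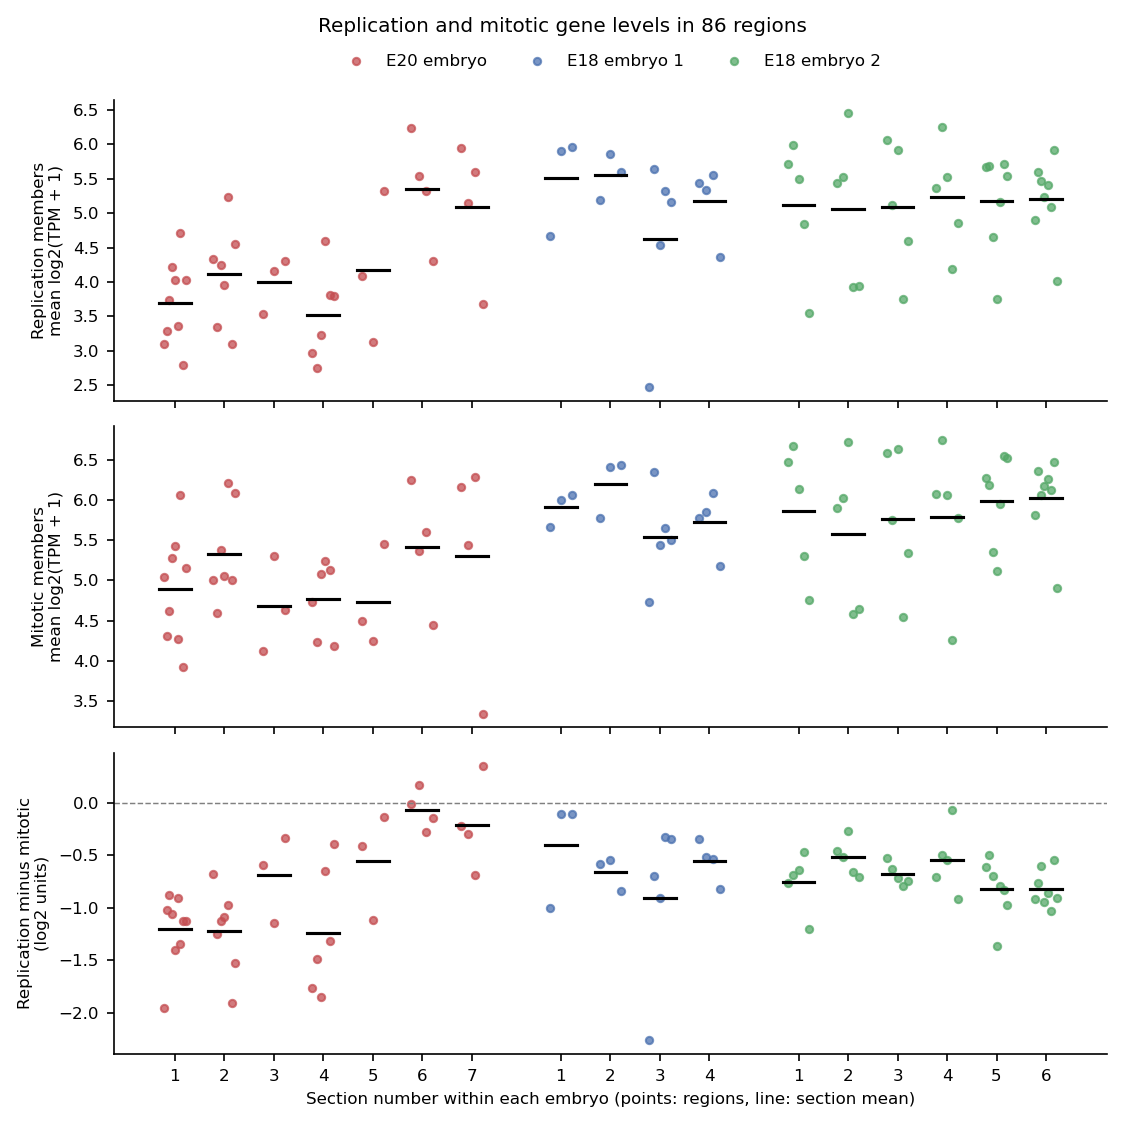
Each point is 1 region, placed by section number within its embryo (horizontal axis), and each black line is a section mean. The vertical axes give the mean log2(TPM + 1) of the 20 replication genes (top), of the 18 mitotic genes (middle) and their difference in log2 units (bottom). E20 sections 6 and 7 have replication means of 5.35 and 5.09, and sections 1 to 5 have means between 3.52 and 4.18.

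Single regions stood apart from these averages. Section 7 sector 4 of the E20 embryo had the lowest mitotic mean of all regions, 3.34, beside a replication mean of 3.69. Section 3 sector 1 of E18 embryo 1 had the lowest replication mean, 2.47, with PCNA at 0.513 TPM, CDC45, FEN1, MCM6 and GINS1 listed at 0, and a mitotic mean of 4.73. That region also had the fewest detected genes of E18 embryo 1, 7815. Without it, 13 genes in place of 11 were called in the stage comparison below, all lower, beside 9.13% of all genes. On the epiblast score described later, 34 in place of 36 were higher, beside 26.3%. On the mesenchyme score 32 in place of 34 were lower, beside 13.7%, and on the amnion score 23 in place of 25, beside 6.02%. The yolk sac endoderm score had 3 called in both cases, beside 6.03% of all genes higher and 7.65% lower without the region.

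Within the E20 embryo, sections 6 and 7 were set against sections 1 to 5, a split taken from earlier results on yolk sac endoderm genes in these data and not from any cell cycle gene. The test was limma on the 7 section means, with Benjamini-Hochberg adjustment over all 15216 genes tested. All sections come from 1 embryo, so these p-values measure the spread between its sections and are too small for a statement about E20 embryos. Of the 20 replication genes, 12 were higher in sections 6 and 7 and 0 were lower, and of the 18 mitotic genes, 3 were higher and 0 were lower. Among all genes tested, 23.7% were higher and 8.46% were lower. The replication count lies above that share of higher genes, and the mitotic count is near it. The median gene was 0.24 log2 units higher in sections 6 and 7; after quantile normalization it stood at -0.01, and 14 of the 38 genes were then called higher, beside 17.5% of all genes.

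The largest differences were in licensing and helicase genes. MCM5, a subunit of the ring, had a lowest, median and highest level of 13.99, 42.4 and 57.1 TPM in sections 6 and 7, against 0, 5.36 and 20.5 TPM in sections 1 to 5. The ranges overlap at their ends. The section means in log2(TPM + 1) were 5.12 and 5.29 in sections 6 and 7, and they lay between 1.59 and 3.26 in sections 1 to 5. The difference in log2(TPM + 1) was 2.74 ± 0.49 (SE, limma adjusted p = 0.00546).

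CDT1, the loading factor that is destroyed once replication begins, showed the widest difference. Its levels were 15.9, 35.1 and 62.9 TPM (lowest, median, highest) in sections 6 and 7 and 0, 1.78 and 39.7 TPM in sections 1 to 5, where 11 of 28 regions listed it at 0. The log2 difference was 3.16 ± 0.73 (SE, limma adjusted p = 0.0157). MCM7, another subunit of the ring, was at 56.3, 159.5 and 230.7 TPM in sections 6 and 7 and at 2.85, 19.3 and 125.1 TPM in sections 1 to 5, a difference of 2.56 ± 0.54 (SE, limma adjusted p = 0.0105). For both genes the upper regions of sections 1 to 5 reached into the range of sections 6 and 7.

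Most of the remaining replication machinery was also higher. FEN1 differed by 2.41 log2 units, CDC45 by 2.32, GINS2 by 2.28, MCM2 by 1.91, MCM3 by 1.61, MCM4 by 1.19, POLA1 by 1.10, PCNA by 1.05 and CDC6 by 1.00, all of them called higher. GINS1 (1.69, adjusted p = 0.0687 by limma), RFC4 (1.05), MCM6 (0.49) and RFC2 (0.34) were not called. In TPM, FEN1 ran from 0.625 to 57.1 in sections 6 and 7 and from 0 to 27.6 in sections 1 to 5 (median 0.218), where 12 of 28 regions listed it at 0. CDC45 was at 10.8, 27.7 and 39.3 TPM (lowest, median, highest) in sections 6 and 7 and at 0, 3.68 and 34.9 TPM in sections 1 to 5. GINS2 was at 22.6, 81.5 and 247.5 TPM in sections 6 and 7 and at 0, 21.4 and 115.3 TPM in sections 1 to 5. Each of these 3 genes had regions in sections 1 to 5 above the median of sections 6 and 7. PCNA, the most abundant replication gene, was at 57.2, 213.7 and 361.9 TPM in sections 6 and 7 and at 8.59, 94.1 and 280.9 TPM in sections 1 to 5. MCM6 was the one subunit of the MCM2 to MCM7 ring that did not pass; whether its difference is smaller than those of its partners was not tested.

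The nucleotide synthesis genes and cyclin E did not pass the test. RRM1, the large subunit of ribonucleotide reductase, was at 17.1, 39.6 and 82.5 TPM (lowest, median, highest) in sections 6 and 7 and at 23.2, 59.7 and 195.5 TPM in sections 1 to 5. Its log2 difference was -0.50 ± 0.22 (SE, limma adjusted p = 0.128). RRM2 stood at -0.14, TYMS at 0.09 and CCNE1 at 0.05 log2 units, and none of these 4 genes was called. RRM2, the small subunit, had medians of 58.0 TPM in sections 6 and 7 and 64.1 TPM in sections 1 to 5. TYMS, thymidylate synthase, had medians of 68.04 TPM in sections 6 and 7 and 51.4 TPM in sections 1 to 5, and CCNE1 of 18.9 TPM in sections 6 and 7 and 24.1 TPM in sections 1 to 5. Their ranges overlapped over most of their width.

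**Figure D2:**
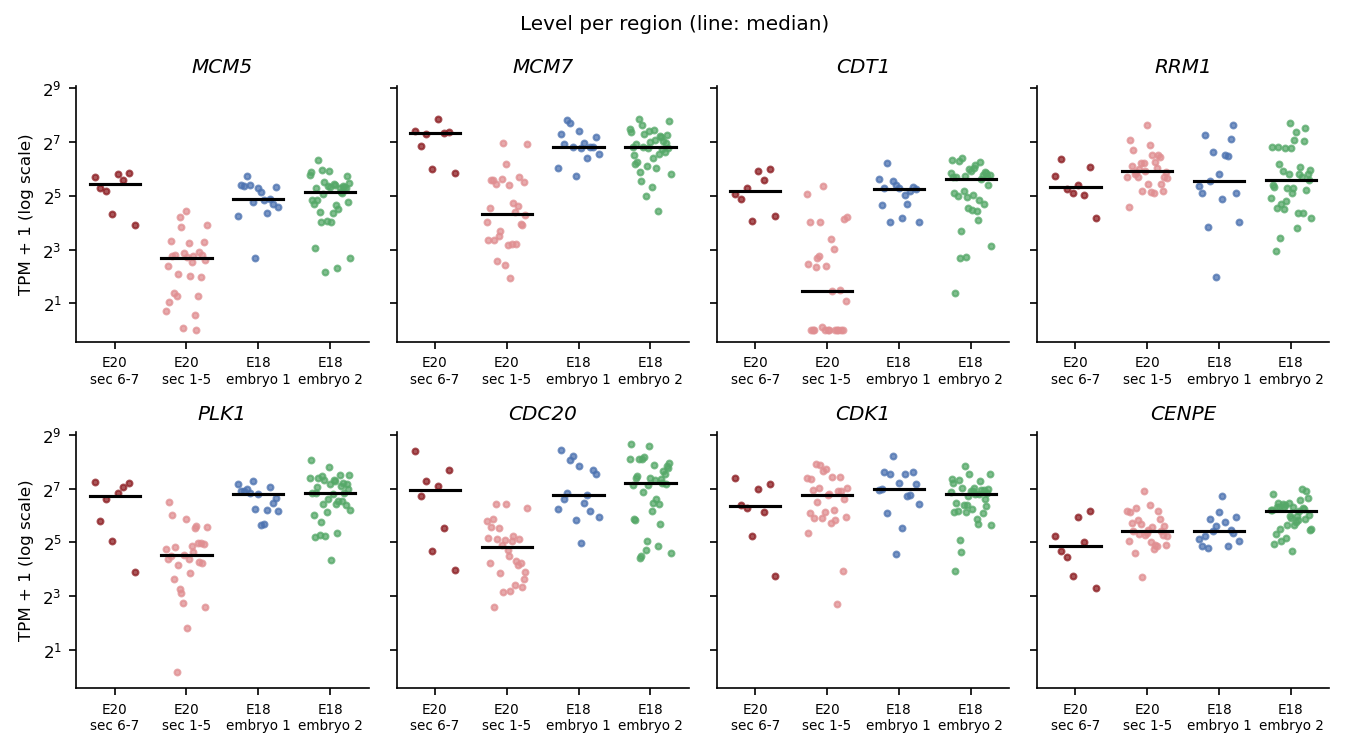
Each point is 1 region and each black line is a group median, with TPM + 1 on a log axis and the groups E20 sections 6 and 7, E20 sections 1 to 5, E18 embryo 1 and E18 embryo 2 from left to right. MCM5, MCM7, CDT1, PLK1 and CDC20 have lower medians in E20 sections 1 to 5 than in the other groups, whereas RRM1 and CDK1 have medians in E20 sections 1 to 5 within the spread of every other group.

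Among the mitotic genes, the 3 called were PLK1, AURKB and CDC20. PLK1, the polo kinase, was at 13.98, 106.2 and 150.1 TPM (lowest, median, highest) in sections 6 and 7 and at 0.144, 21.9 and 89.6 TPM in sections 1 to 5, a log2 difference of 1.87 ± 0.32 (SE, limma adjusted p = 0.00452). CDC20 was at 14.8, 121.0 and 339.7 TPM in sections 6 and 7 and at 5.01, 27.3 and 86.1 TPM in sections 1 to 5, a difference of 1.83 ± 0.31 (SE, limma adjusted p = 0.00489). AURKB, the kinase of the chromosomal passenger complex, was at 5.88, 88.7 and 157.8 TPM in sections 6 and 7 and at 0, 21.2 and 93.0 TPM in sections 1 to 5, and differed by 1.88 ± 0.52 (SE, limma adjusted p = 0.0293). The groups overlapped in all 3 genes, and section 7 sector 4 had the lowest level of sections 6 and 7 in each.

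The other 15 of the 18 mitotic genes were not called. CDK1, the kinase at the head of mitotic entry, had medians of 79.7 TPM in sections 6 and 7 and 108.8 TPM in sections 1 to 5, with a log2 difference of -0.29 ± 0.35 (SE). Cyclins CCNA2, CCNB1 and CCNB2 differed by 0.32, 0.19 and 0.14 log2 units, TOP2A by 0.17 and MKI67, the proliferation marker, by 0.24. In TPM, TOP2A ran from 13.4 to 216.5 in sections 6 and 7 and from 27.9 to 214.3 in sections 1 to 5, so the groups covered nearly the same range. The checkpoint kinases TTK (0.83) and BUB1 (0.78) had the largest differences among the mitotic genes not called. CENPE, the kinesin that carries chromosomes to the spindle equator, stood at -0.57 ± 0.23 (SE, limma adjusted p = 0.0949), and its section means in 6 and 7 were both below those of the other 5. Section means did not overlap, with 6 and 7 higher, for 13 of 20 replication genes and 5 of 18 mitotic genes (PLK1, AURKB, CDC20, TTK and KIF11), beside 32.9% of all genes tested. With sections 6 and 7 lower, they did not overlap for CENPE alone, beside 12.8% of all genes. The median difference was 1.14 over the replication genes and 0.24 over the mitotic genes.

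**Figure D3:**
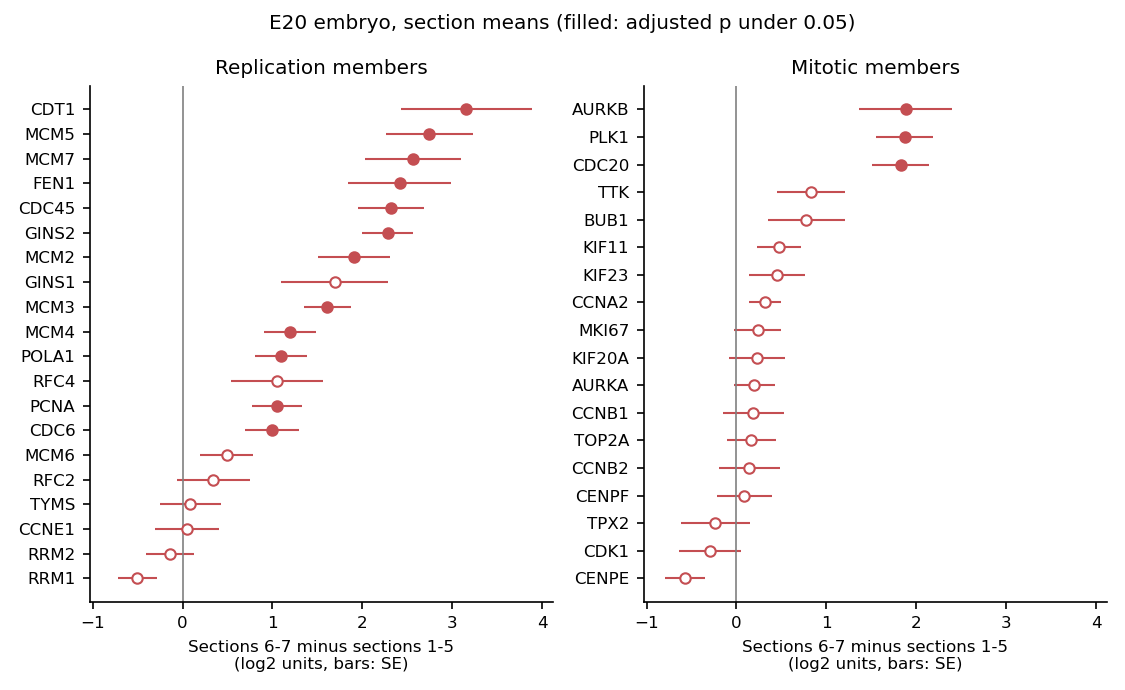
Points give the difference in mean log2(TPM + 1) between E20 sections 6 and 7 and E20 sections 1 to 5 for each of 20 replication genes (left) and 18 mitotic genes (right), with bars of 1 SE; filled points passed an adjusted p of 0.05. In all, 12 replication genes and 3 mitotic genes are filled, and RRM1 and CENPE lie lowest in their panels at -0.50 and -0.57.

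Other genes of the same machinery, in lists that do not hold the 38, were counted in the same fit. Of 39 other replication genes, 15 were higher in sections 6 and 7 and 0 were lower, a share above the 23.7% over all genes. They included E2F1, the transcription factor of the G1 to S switch (2.50 ± 0.34 SE), TK1, thymidine kinase (2.34 ± 0.75), the chromatin remodeller HELLS (1.96 ± 0.30) and POLD1, the catalytic subunit of DNA polymerase delta (1.88 ± 0.53). Of 55 other mitotic genes, 6 were higher and 3 were lower, which is below the background of higher genes. KIF2C, a kinesin that takes microtubules apart, was higher by 1.85 ± 0.31 and MYBL2, a transcription factor of G2 and M phase genes, by 1.83 ± 0.33 (SE). TACC3, a spindle protein, was higher by 1.66 ± 0.30 and the kinesin KIF22 by 1.62 ± 0.41 (SE).

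The regulators of G1 were mixed. Of 20 G1 cyclins, CDKs and pocket protein partners, 5 were higher in sections 6 and 7 and 2 were lower. Both counts are near the shares over all genes, 23.7% higher and 8.46% lower. SKP2, the ubiquitin ligase subunit that targets the inhibitor p27, was lower by 3.06 log2 units (-3.06 ± 0.18 SE, limma adjusted p = 8.1e-05), and LIN54, a DNA-binding part of the DREAM complex, stood at -1.82 ± 0.37. E2F4 (2.31 ± 0.46) and TFDP2 (1.62 ± 0.24), which pair in E2F complexes, were higher. Of 13 CDK inhibitors and arrest genes, 1 was higher and 4 were lower, beside the same 23.7% and 8.46% of all genes. TOB1, an antiproliferative protein, stood at -2.30 ± 0.43, CDKN1A, the inhibitor p21, at -1.94 ± 0.55, GADD45A at -1.22 ± 0.28 and GADD45B at 1.93 ± 0.32 (SE).

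Marker genes of other tissues were summed over the same split. The split was taken from yolk sac endoderm genes in these data, so the difference in that list was fixed in advance. The summed level of 18 hypoblast and yolk sac endoderm markers was 12.5 to 177.9 TPM over regions of sections 6 and 7, with FGA and SERPINA1 at 0 in every one, and 99.2 to 163400 TPM over regions of sections 1 to 5. The 12 epiblast markers measured summed to 55.6 to 1109 TPM in sections 6 and 7 and 14.1 to 165.3 TPM in sections 1 to 5, where SOX2 was below 1 TPM in every region. The 15 mesenchyme markers summed to 30.2 to 4331 TPM in sections 6 and 7 and 560.2 to 12460 TPM in sections 1 to 5. Between 10046 and 10950 genes were detected in regions of sections 6 and 7, against 6194 to 10674 in sections 1 to 5. The 14 amnion and surface ectoderm markers summed to 25.1 to 4679 TPM in sections 6 and 7 and 255.4 to 1949 TPM in sections 1 to 5. The 14 primitive streak and nascent mesoderm markers summed to 19.1 to 2996 TPM in sections 6 and 7 and at most 51.4 TPM in sections 1 to 5, where TBXT, GSC, MESP1, TBX6, FGF17 and FGF4 were at 0 in every region.

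The remaining marker lists had higher medians in sections 1 to 5. The median sum of 12 blood and endothelium markers was 54.1 TPM in sections 6 and 7 and 499.5 TPM in sections 1 to 5. That of 9 trophoblast markers was 40.2 TPM in sections 6 and 7 and 298.9 TPM in sections 1 to 5. That of 9 immune and decidual markers was 12.7 TPM in sections 6 and 7 and 84.6 TPM in sections 1 to 5. The part of tissue makeup and of detection in the cell cycle differences was not tested.

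Leaving out section 6 gave 5 of 38 genes called higher, beside 15.1% of all genes, and leaving out section 7 also gave 5, beside 13.9%, against 15 of 38 beside 23.7% with both. Sections 6 and 7 are then represented by 1 section, which is assumed to vary as sections 1 to 5 do. Leaving out sector 4 of sections 6 and 7, the 2 regions of the E20 embryo with the highest amnion scores, gave 19 genes called higher, 14 of them replication genes and 5 mitotic genes, beside 22.1% of all genes.

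The stage comparison set the mean of the E20 regions against the means of the 2 E18 embryos. Of the 38 genes, 11 were lower in the E20 embryo and 0 were higher, 7 of 20 replication genes and 4 of 18 mitotic genes. Among all genes tested, 8.75% were lower and 2.64% were higher, and the median gene stood at -0.44 log2 units. The shift of the median gene was -0.01 after quantile normalization, with 7 of the 38 then called lower, beside 4.46% of all genes. With 1 E20 embryo and 1 residual degree of freedom, the error of each gene is almost wholly borrowed from the other genes, and stage cannot be told apart from the individual embryo or from which tissues were cut.

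CDT1 had the largest stage difference. Its lowest, median and highest levels were 0, 4.98 and 62.9 TPM over regions of the E20 embryo, 15.3, 37.6 and 72.9 TPM in E18 embryo 1, then 1.59, 48.0 and 82.95 TPM in E18 embryo 2, so the regions overlapped. Its mean log2(TPM + 1) was 2.53 in the E20 embryo, 5.05 in E18 embryo 1, then 5.10 in E18 embryo 2, a difference of -2.55 ± 0.47 (SE, limma adjusted p = 5.6e-06). FEN1 followed at -2.41 ± 0.54 and MCM3 at -1.91 ± 0.43 (SE), with MCM5, CDC45, MCM7 and MCM2 between -1.86 and -1.63. Among the mitotic genes, PLK1 stood at -1.90 ± 0.42, CDC20 at -1.82 ± 0.43 and AURKB at -1.76 ± 0.42 (SE). PLK1 was at 0.144, 26.5 and 150.1 TPM over regions of the E20 embryo, 49.1, 109.9 and 155.6 TPM in E18 embryo 1, then 19.5, 112.5 and 264.2 TPM in E18 embryo 2. MKI67 stood at -1.36 ± 0.43 (SE, limma adjusted p = 0.0208). The nearest values on the other side were those of RRM1 (0.28), RFC2 (0.22) and CCNE1 (0.12), the 3 genes of the 38 above 0, none of them called.

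The other lists of the machinery gave these counts at E20 relative to E18. Each is to be read beside the shares of all genes lower and higher given above for the stage comparison. Of all 15216 genes tested, 11440 had a stage difference below 0. Of 39 other replication genes 8 were lower and 0 were higher, including TIMELESS, a fork protection protein (-2.08 ± 0.55 SE), TK1 (-1.73 ± 0.53), POLD1 (-1.71 ± 0.54) and the replication initiation factor MCM10 (-1.49 ± 0.50). Of 55 other mitotic genes 10 were lower and 0 were higher, with KIF2C (-2.30 ± 0.56), KIF22 (-2.02 ± 0.43), TACC3 (-1.88 ± 0.44) and the passenger complex scaffold INCENP (-1.87 ± 0.68) at the head. Of 20 G1 genes, SKP2 was higher (1.77 ± 0.43), and E2F4 (-1.75 ± 0.46), E2F3 (-1.48 ± 0.53) and LIN37 (-1.30 ± 0.47) were lower. None of 13 CDK inhibitors and arrest genes was called by limma, and 1 had an unadjusted p under 0.05. In the same comparison 10 of 12 epiblast markers were lower and 13 of 18 yolk sac endoderm markers were higher in the E20 embryo, and the part of this in the cell cycle values was not tested.

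The stage result depended on which E20 sections entered the mean. The unadjusted counts below cover the 38 genes alone and are not set against a share of all genes. With sections 6 and 7 alone, 0 of 38 genes and 6 of all 15216 genes were called by limma, and 4 of the 38 had an unadjusted p under 0.05. The replication genes then had a median difference of 0.05 log2 units, with 13 of 20 above 0, and the values of CDT1 (0.05), CDC45 (0.05), MCM7 (0.22) and MCM5 (0.36) turned positive. The mitotic genes had a median of -0.40 with 17 of 18 below 0, beside -0.22 over all genes. MKI67 stood at -1.24 log2 units, CENPF, a kinetochore protein, at -0.95, CENPE at -0.93 and TPX2, a spindle assembly factor, at -0.88, none of them called. In TPM, MKI67 was at 3.29, 18.5 and 45.5 (lowest, median, highest) in E20 sections 6 and 7, 3.31, 14.6 and 47.7 in E20 sections 1 to 5, 12.3, 33.3 and 77.9 in E18 embryo 1, then 14.95, 58.6 and 118.4 in E18 embryo 2. CENPF was at 8.56, 43.7 and 95.9 TPM in E20 sections 6 and 7, 16.4, 43.6 and 142.3 TPM in E20 sections 1 to 5, 30.7, 74.2 and 141.6 TPM in E18 embryo 1, then 27.6, 107.8 and 176.6 TPM in E18 embryo 2. For both genes the section groups of the E20 embryo had close medians, below those of the E18 embryos, and the regions overlapped. With sections 1 to 5 alone, 15 of 38 genes were lower, beside 14.9% of all genes, and CDT1 stood at -3.29 and MCM5 at -2.50. Using the median over regions in place of the mean, 0 of 38 genes and 0 of all 15216 genes were called by limma, with 12 of the 38 at an unadjusted p under 0.05.

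The E18 embryos were also set side by side. E18 embryo 2 minus E18 embryo 1 had a median of 0.03 log2 units over the replication genes (range -0.46 to 0.54) and 0.10 over the mitotic genes (range -0.76 to 0.58), beside 0.41 over all genes tested. This pair allows no test.

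To place the genes among tissues, each region was scored for 4 marker lists, and every gene was regressed on each score with embryo as a block. A slope is the change in log2(TPM + 1) per SD of the score. These fits use single regions, and since regions share an animal their p-values are too small. No cell cycle gene is in a marker list.

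With the epiblast score (SOX2, NANOG, TDGF1, DNMT3B and others), 36 of 38 genes were higher, 19 of 20 replication genes and 17 of 18 mitotic genes, beside 28.1% of all genes tested. In the E20 embryo, MCM5 was at 55.6 TPM in the region with the highest score and 6.30 TPM in the region with the lowest. In the same order it was at 41.8 and 5.39 TPM in E18 embryo 1, then 54.3 and 15.6 TPM in E18 embryo 2. The lowest-scoring region of E18 embryo 1 was section 3 sector 1, the region of that embryo with the fewest detected genes, 7815. The part of detection in its low level was not tested. The slope of MCM5 was 0.94 ± 0.10 (SE, limma adjusted p = 5.0e-14), the steepest of the 38. Within embryos it was 1.27 in E20, 0.60 in E18 embryo 1, then 0.75 in E18 embryo 2.

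CDC45 (0.89 ± 0.12) and FEN1 (0.86 ± 0.14) came next among the replication genes. CDC20 was the steepest mitotic gene, at 0.86 ± 0.10 (SE, limma adjusted p = 2.0e-11), followed by AURKB (0.76 ± 0.14) and PLK1 (0.64 ± 0.10). CDC20 was at 137.4 TPM in the highest and 32.7 TPM in the lowest region of the E20 embryo. It was at 264.3 and 55.5 TPM in E18 embryo 1 and at 276.6 and 31.96 TPM in E18 embryo 2. The 55.5 TPM is again that of section 3 sector 1. RRM1 (0.16 ± 0.11) and CENPE (0.15 ± 0.07) were the genes not called. The median slope was 0.66 over the replication genes, 0.40 over the mitotic genes and 0.06 over all genes tested.

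Most slopes pointed the same way in every embryo. Slopes had the same sign in all 3 embryos for 33 of 38 genes, beside 7152 of 15216 genes tested. With the other 3 scores as covariates 30 of 38 genes were called higher, beside 19.8% of all genes, and with section as a block 37 were, beside 16.4%. When the 3 embryo slopes were tested against 0 by limma, 0 of the 38 and 0 of all 15216 genes were called. Of the 38, 31 had an unadjusted p under 0.05 by limma, and the share of all genes at that level was not counted. The E20 regions with high epiblast scores lie in sections 6 and 7, so the score and the section comparison share regions in that embryo; without the E20 embryo 33 of 38 genes were called, beside 5026 of 15216 genes called in either direction.

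**Figure D4:**
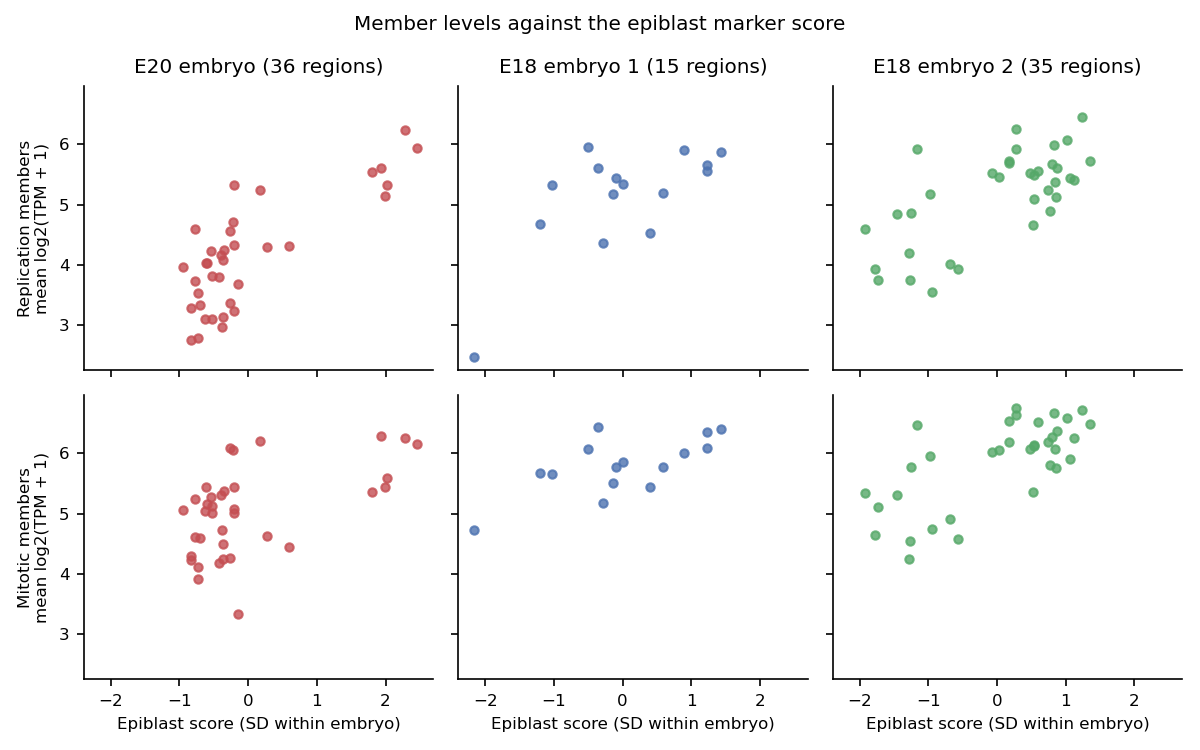
Each point is 1 region of the E20 embryo (left), E18 embryo 1 (middle) or E18 embryo 2 (right), with the epiblast score in SD within the embryo on the horizontal axis and the mean log2(TPM + 1) of the replication genes (top) or mitotic genes (bottom) on the vertical axis. Pearson's r over regions was 0.79 in E20, 0.68 in E18 embryo 1, then 0.69 in E18 embryo 2 for the replication genes, and 0.53, 0.67 and 0.70 in the same order for the mitotic genes.

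Most genes of the other replication and mitotic lists were also higher with the epiblast score, whereas the G1 genes and the CDK inhibitors were mixed. Of 39 other replication genes 32 were higher, led by E2F1 (0.86 ± 0.12 SE), the origin recognition subunit ORC1 (0.84 ± 0.11), the checkpoint adaptor CLSPN (0.78 ± 0.09) and TK1 (0.78 ± 0.18), and 0 were lower. Of 55 other mitotic genes 41 were higher, with MYBL2 (0.75 ± 0.09), the kinetochore protein SPC25 (0.71 ± 0.11), TACC3 (0.65 ± 0.08) and the passenger complex subunit CDCA8 (0.65 ± 0.11) first, and 0 were lower. Of 20 G1 genes 8 were higher, beside 28.1% of all genes, and 1 was lower, beside 13.3%. Among them were E2F4 (0.61 ± 0.12), TFDP2 (0.48 ± 0.06) and SKP2 (-0.60 ± 0.09). Of 13 CDK inhibitors and arrest genes, 3 were higher, beside the 28.1% over all genes, and 5 were lower, beside 13.3%. CDKN1A (-0.38 ± 0.15) and TXNIP (-0.37 ± 0.11) were among the lower ones.

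With the extraembryonic mesenchyme score (collagens, LUM, HAND1 and others), 34 of 38 genes were lower, 19 replication and 15 mitotic, beside 15.1% of all genes tested. CDC20 had the steepest slope, -0.77 ± 0.11 (SE, limma adjusted p = 1.1e-08). It was at 24.7 TPM in the highest-scoring and 339.7 TPM in the lowest-scoring region of the E20 embryo. These were section 6 sector 4, which also had the highest amnion score of that embryo, and section 6 sector 1, with an epiblast score of 2.28. CDC20 was at 61.0 and 347.3 TPM in E18 embryo 1 and at 57.6 and 115.2 TPM in E18 embryo 2. AURKB (-0.52 ± 0.15) and TOP2A (-0.41 ± 0.07) followed among the mitotic genes, and MCM2 (-0.66 ± 0.11), FEN1 (-0.66 ± 0.15) and MCM5 (-0.58 ± 0.12) led the replication genes. Signs agreed over the 3 embryos for 35 of 38 genes, beside 51.5% of all genes.

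The mesenchyme slopes changed when the other scores were fitted with them. The epiblast and mesenchyme scores had a Pearson's r of -0.42 over regions of the E20 embryo, -0.83 in E18 embryo 1, then -0.92 in E18 embryo 2. With the other 3 scores as covariates, 1 of 38 genes was called, CDK1, higher at 0.49 ± 0.16 (SE). That single call stands beside 7.86% of all genes higher and 1.98% lower. Of the 34 slopes called without these covariates, 27 changed sign. Without E18 embryo 2, 6 genes were called lower, beside 7.37% of all genes. The 3 embryo slopes against 0 gave 0 calls by limma among the 38 and among all 15216 genes, with 33 of the 38 at an unadjusted p under 0.05. How many of all genes reached that unadjusted level was not counted.

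With the amnion and surface ectoderm score (ISL1, GABRP, TFAP2A and others), 25 of 38 genes were lower, 10 replication and 15 mitotic, beside 6.74% of all genes tested. CDK1 was at 36.9 TPM in the highest-scoring and 143.5 TPM in the lowest-scoring region of the E20 embryo, at 122.2 and 298.3 TPM in E18 embryo 1 and at 23.9 and 125.5 TPM in E18 embryo 2. Its slope was -0.48 ± 0.09 (SE, limma adjusted p = 4.8e-05), and CDC20 (-0.47 ± 0.13) and TOP2A (-0.43 ± 0.07) came next among the mitotic genes. Among the replication genes the steepest were RRM1 (-0.57 ± 0.10), MCM6 (-0.54 ± 0.10) and RRM2 (-0.48 ± 0.11), none of which was called between the E20 section groups.

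The amnion slopes differed between embryos for 7 of 38 genes, beside 14.1% of all genes. MCM5 had an amnion slope of 0.51 in the E20 embryo, -0.34 in E18 embryo 1, then -0.76 in E18 embryo 2, a difference between embryos with an adjusted p of 0.00248 by limma's moderated F test. CDT1, CDC45, MCM2, MCM7 and POLA1 also had positive E20 slopes and differed between embryos, and the slope of CDC20 was below 0 in all 3. The 2 regions in sector 4 of E20 sections 6 and 7 had the highest amnion scores of that embryo, 3.54 and 3.52. Without them 12 of 38 genes were called lower, beside 3.77% of all genes. Without E18 embryo 2 there were 6, beside 1.41%, and without the E20 embryo there were 37, beside 18.2%. The E20 slopes were below 0 for 9 of 38 genes without those 2 regions and for 24 of 38 with them. Slopes differed between embryos for 23 of 38 genes without the 2 regions, beside 15.2% of all genes, against 7 of 38 with them. In E18 embryo 2 the amnion and mesenchyme scores had a Pearson's r of 0.91 over regions.

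The share of TPM in mitochondrially encoded genes also moved with the cell cycle levels in E18 embryo 2. It ran from 9.82% to 28.8% over regions of the E20 embryo, from 8.91% to 40.6% in E18 embryo 1 and from 13.3% to 48.8% in E18 embryo 2. Its Pearson's r with the replication mean was 0.02 in the E20 embryo, -0.09 in E18 embryo 1, then -0.58 in E18 embryo 2, and with the mitotic mean 0.23, -0.18 and -0.54 in the same order. With the amnion score its r in E18 embryo 2 was 0.14 over 35 regions. With this share as a covariate, an alternative added after seeing the data, 25 of 38 genes were lower on the amnion score, beside 7.54% of all genes. On the mesenchyme score 36 were lower, beside 17.7%, and on the epiblast score 36 were higher, beside 29.4%. With the mitochondrially encoded genes removed and TPM rescaled, 20 were lower on the amnion score, beside 5.5% of all genes. The mesenchyme score then had 35 lower, beside 15.2%, and the epiblast score 37 higher, beside 29.4%.

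**Figure D5:**
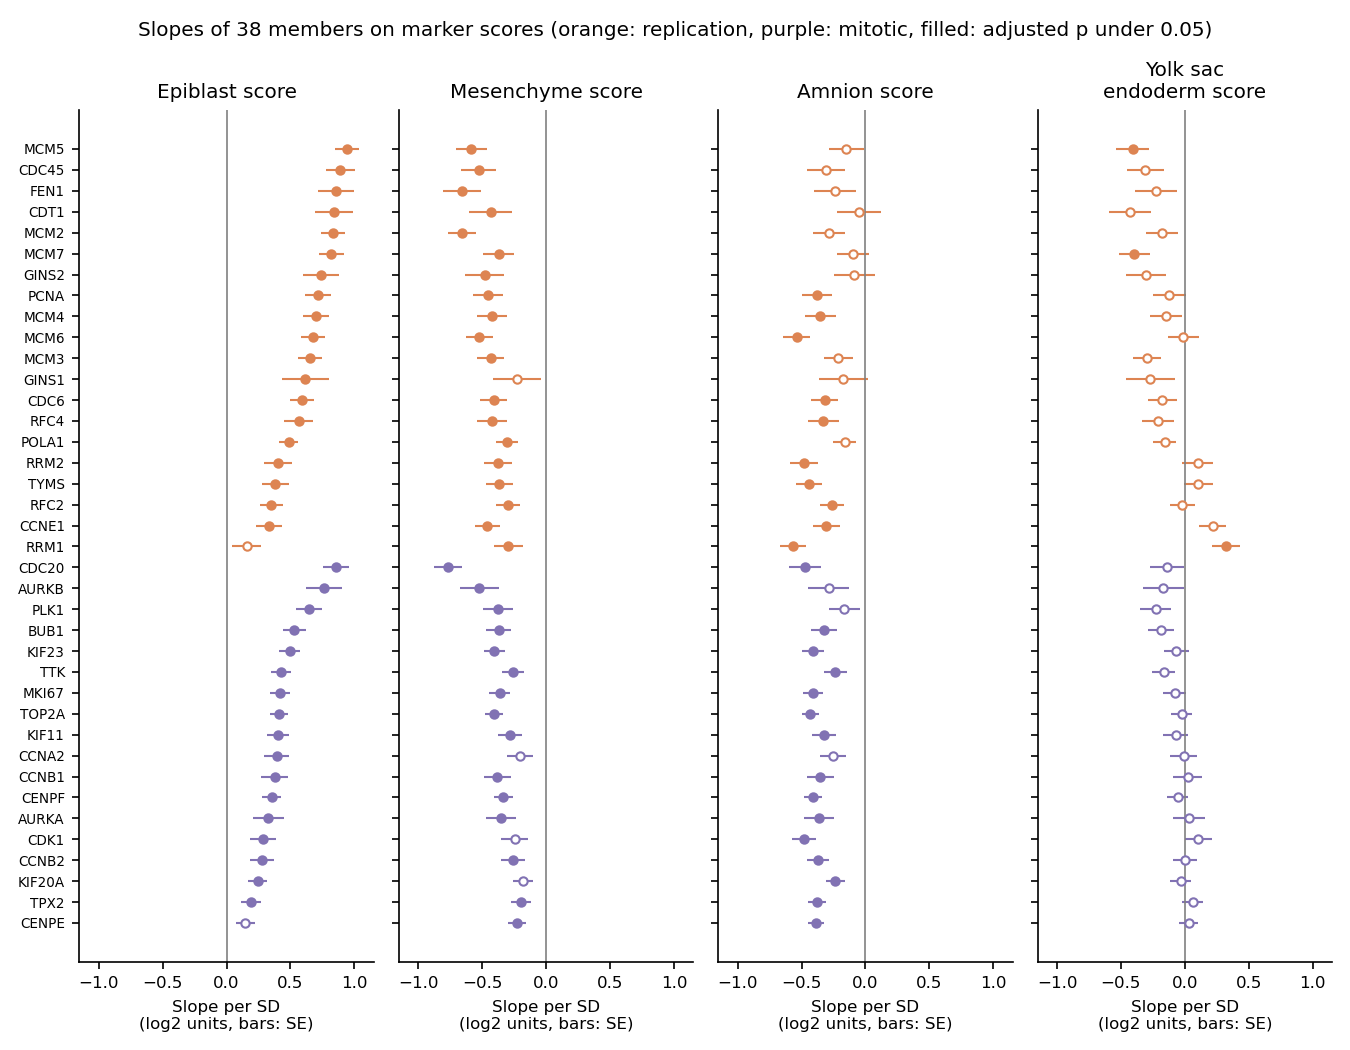
Points give the slope of each of 38 genes on 4 marker scores, in log2(TPM + 1) per SD of the score with embryo as a block, with bars of 1 SE; replication genes are orange and mitotic genes purple, and filled points passed an adjusted p of 0.05. Filled points number 36 for the epiblast score (all above 0), 34 for the mesenchyme score and 25 for the amnion score (all below 0), and 3 for the yolk sac endoderm score.

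With the yolk sac endoderm score (APOA1, AFP, TTR and others) few genes passed. RRM1 was higher (0.32 ± 0.11 SE), and MCM5 (-0.41 ± 0.13) and MCM7 (-0.40 ± 0.12) were lower, beside 5.84% of all genes higher and 6.68% lower. The lower slopes rested on the E20 embryo: MCM7 had a slope of -1.12 in E20, -0.13 in E18 embryo 1, then 0.24 in E18 embryo 2. The score is scaled within each embryo, so 1 SD covers unlike marker levels. The 18 markers summed to 12.5 to 163400 TPM over E20 regions. They summed to 13.65 to 6174 TPM in E18 embryo 1, then 14.05 to 363.6 TPM in E18 embryo 2. The part of this in the slopes was not tested. Slopes differed between embryos for 9 of 38 genes, 7 of them replication genes, beside 15.2% of all genes. Without the E20 embryo 0 of the 38 genes were called by limma, beside 22 of all genes tested. Of the 38, 4 then had an unadjusted p under 0.05, and MCM5 and MCM7 had slopes of 0.11 and 0.13.

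Section and sector numbers gave fewer results. Section numbers were rescaled within each embryo to run between 0 and 1. Along them, 5 of 38 genes were higher toward the later sections, all of them replication genes, beside 8.81% of all genes tested, and 0 were lower, beside 1.89%. CDT1 (1.40 ± 0.46 SE), CDC45 (1.27 ± 0.40) and MCM2 (1.18 ± 0.34) had the steepest slopes, followed by MCM7 and MCM5. Within embryos the slope of CDT1 was 2.97 in E20, -0.31 in E18 embryo 1, then 0.60 in E18 embryo 2. Without the E20 embryo 0 of the 38 genes were called by limma, beside 9 of all genes tested. With its blocks 1 to 5 and 6 to 7 fitted separately 0 were called, beside 6 of all genes. In both fits 0 of the 38 had an unadjusted p under 0.05 by limma. With the number of detected genes as a covariate 0 were called, beside 502 of all genes, and 5 had an unadjusted p under 0.05.

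Over sector number within a section, CDT1 alone was lower (-1.24 ± 0.37 SE, limma adjusted p = 0.0396), beside 0.762% of all genes tested, and 0 genes were higher, beside 2.48%. No call remained without the E20 embryo (13 of the 38 genes at an unadjusted p under 0.05 by limma, and 340 of all genes called). None remained without E18 embryo 2 either (0 of the 38, and 0 of all genes called). In E18 embryo 2 the sector slopes of all 38 genes were below 0, with a median of -1.04, whereas 17 of 38 were below 0 in the E20 embryo and 11 of 38 in E18 embryo 1. Over all genes tested, 7748 of 15216 were below 0 in E18 embryo 2. By the moderated F test the sector slopes of 0 of the 38 genes differed between embryos, beside 0.48% of all genes. Tissue markers also moved with sector number in the fit over all embryos. Slopes were above 0 for 15 of 15 mesenchyme markers (10 called) and 13 of 14 amnion markers (5 called). They were below 0 for 11 of 12 epiblast markers (4 called). The part of tissue makeup in the sector slopes was not tested. The labels do not say which way sections or sectors are numbered in the embryo.

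The genes moved together from region to region to different degrees. As a description over 86 regions, with embryo means removed, the median Pearson's r was 0.49 over 190 pairs of replication genes, 0.51 over 153 pairs of mitotic genes and 0.43 over 360 pairs with 1 of each. All pairs share the same libraries and their depth. TOP2A and CENPF had the highest pair value, 0.86, then MKI67 and CENPF with 0.81 and MCM6 and PCNA with 0.78. Against the mean of the rest of its own set, TOP2A (0.85) and CENPF (0.84) had the highest r among mitotic genes and PCNA (0.83) and MCM2 (0.81) among replication genes. CCNE1 (0.38), RRM1 (0.48) and CENPE (0.51) had the lowest values. AURKB, PLK1 and CDC20, the mitotic genes called in the section comparison, had a higher r with the replication mean (0.75, 0.67 and 0.77) than with the rest of their own set (0.52, 0.60 and 0.73). They were picked by a difference between E20 sections in these same regions, in which most replication genes were also higher. Only embryo means were removed, so that difference enters these r values, which are no separate result.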

How the data were processed

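TPM values per gene and region were made and deposited by the authors; per the submitters' processing notes fastp, HISAT2 and StringTie were used, with no versions. The genome build was not given in the sources used here. Columns summed to 495547 to 777987 TPM, so part of what was normalized is not in the table. Columns were matched to regions by stage, embryo, section and sector, with 0 unmatched. No 2 regions held identical values (highest pairwise r 0.961).

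From these values log2(TPM + 1) was computed; fold changes on this scale understate changes of low genes. Genes with at least 1 TPM in at least 10 regions (15216) were fitted with limma 3.58.1 (eBayes with trend) in R 4.3.3, adjusted by Benjamini-Hochberg at 0.05 over all of them. Embryo means entered the stage test, section means the E20 test, and regions with an embryo block the score and section tests (section within embryo for sectors). A score is the mean within-embryo z of a marker list, scaled to an SD of 1. Tables and plots used Python 3.11.15, numpy 2.4.6, pandas 2.3.3 and matplotlib 3.10.9. The fits were tested on simulated data.

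The genes, lists and section split were chosen with earlier results of these data known. Full statistics are given for the 3 largest called effects per set and direction at a mean of at least 5 TPM, and up to 4 called genes per other list. Genes with no such call, the per-sample extremes and the remaining values named in the text were chosen after their values were seen. All 38 symbols matched a RefSeq gene symbol of the same species. Alternatives were the pseudocount 0.1, no filter, a filter of 5 TPM in 20 regions, quantile normalization, dropping 13 mitochondrially encoded genes, detected genes as a covariate, other blocks, other covariates (the mitochondrial share among them), and leaving out embryos, sections or regions. Promoter motifs and sequences were not analysed here.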

Additional observations from a re-analysis of the deposited data

Results flagged for a closer look

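The replication mean, the mitotic mean and their gap were looked at over the regions of each section with 4 to 10 regions and over the section means of each embryo, 48 sets of values in all, and 2 held a region far from the others; chance flags about 1 in 20 groups. In section 6 of E18 embryo 2, sector 8 had a mitotic mean of 4.91 log2(TPM + 1). In section 1 of the E20 embryo, sector 1 had a replication minus mitotic gap of -1.95.

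In 25 cases the slope of a gene differed between the 3 embryos by limma's moderated F test. Over section number the adjusted p was 0.0191 for CDC45, 0.0196 for FEN1, 0.0200 for MCM2, 0.00706 for MCM5, 0.00571 for MCM7, 0.0376 for PLK1 and 0.0382 for TPX2. These 7 of 38 genes stand beside 10.1% of all genes with slopes that differed over section number. TPX2 was the case with a negative E20 slope (-0.92), and the other 6 had E20 slopes of 2.15 to 2.93. On the epiblast score it was 0.00637 for CDT1, whose slope was 1.40 in E20, -0.17 in E18 embryo 1 and 0.68 in E18 embryo 2, and 0.0143 for MCM7, 2 of 38 genes beside 15.2% of all genes.

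On the yolk sac endoderm score the adjusted p was 0.0112 for AURKB, 0.0102 for CDC45, 0.0115 for CDT1, 0.00255 for GINS1, 0.0215 for GINS2, 0.0342 for MCM3, 0.000136 for MCM5, 1.1e-05 for MCM7 and 0.0204 for PLK1. These are 9 of 38 genes, beside 15.2% of all genes. Every one of these 9 had a negative E20 slope and a positive slope in E18 embryo 2. The markers of this score summed to at most 163400 TPM in E20 regions and 363.6 TPM in E18 embryo 2. On the amnion score it was 0.0250 for CDC20, 0.00416 for CDC45, 0.00603 for CDT1, 0.00417 for MCM2, 0.00248 for MCM5, 0.0388 for MCM7 and 0.0368 for POLA1. These are 7 of 38 genes, beside 14.1% of all genes. CDC20 had negative slopes in all 3 embryos, and the other 6 had positive slopes in E20 and negative slopes in E18 embryo 2. The cause of these differences was not tested.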

How the results depend on the processing

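No paired analysis was possible because the replicate numbers only name regions in accession order and pair none across embryos. The depth of a region is unknown, regions share an animal, and the E20 stage is 1 embryo. These points limit every p-value here. Unadjusted counts, here and above, cover the listed genes alone and are not set against a share of all genes. Of the counts of called members, those of the epiblast score and of the E20 section comparison stayed within 1.5 times under every alternative other than those named next; the cause of the moves was not tested.

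Tested over the 3 embryo slopes, 0 of all genes and 0 members were called by limma for the epiblast (31 unadjusted), mesenchyme (33), amnion (7), yolk sac endoderm (0), section (0) and sector (0) results. Leaving out 1 embryo at a time gave 25 to 35 members for the epiblast score, 6 to 34 for mesenchyme, 6 to 37 for amnion, 0 to 8 for yolk sac endoderm, 0 to 7 for the section trend and 0 to 1 for the sector trend; leaving out 1 E20 section gave 5 to 16. The stage count of 11 became 7 after quantile normalization, 0 with medians over regions (0 of all genes) and 0 with E20 sections 6 and 7 only, and the median stage difference of -0.75 was -0.83 to -0.76 without an E18 embryo. The section count of 5 became 2 with the pseudocount 0.1 and 3 after quantile normalization. It became 0 with detected genes as a covariate (502 of all genes called) and 0 with separate E20 blocks (6 of all genes). The sector count of 1 became 0 with the pseudocount 0.1 (6 unadjusted), 2 after quantile normalization and 0 with detected genes as a covariate (7 unadjusted). The yolk sac endoderm count of 3 became 5 without mitochondrially encoded genes, 0 with detected genes (5 unadjusted), 0 with section blocks (2 unadjusted) and 0 with the other 3 scores as covariates (1 unadjusted). With those covariates, added after seeing the data, the mesenchyme count became 1 and the amnion count 12; the amnion count was also 12 without the 2 E20 regions of highest amnion score, likewise added.

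Some signs reversed. With E20 sections 6 and 7 only, the stage values became 0.053 for CDC45, 0.0534 for CDT1, 0.36 for MCM5 and 0.22 for MCM7. The section slope of MCM5 ranged from -0.0879 (without the E20 embryo) to 1.85 when 1 embryo was left out, and was -0.0042 with separate E20 blocks. On the yolk sac endoderm score, MCM5 ranged from -0.83 to 0.11 and MCM7 from -0.84 to 0.13 when 1 embryo was left out, the positive values being those without the E20 embryo. They became 0.14 and 0.0617 with section blocks, and 0.0156 and 0.0071 with the other scores as covariates. With these covariates CCNE1 became 0.12 on the amnion score, and the mesenchyme slopes became 0.0089 for AURKA, 0.12 for AURKB, 0.23 for BUB1, 0.22 for CCNB2, 0.34 for CDC45, 0.21 for CDC6, 0.14 for CDT1, 0.12 for CENPE, 0.17 for CENPF, 0.31 for KIF11, 0.20 for KIF23, 0.0485 for MCM3, 0.43 for MCM4, 0.36 for MCM6, 0.38 for MCM7, 0.20 for MKI67, 0.39 for PCNA, 0.18 for PLK1, 0.11 for POLA1, 0.0744 for RFC2, 0.12 for RFC4, 0.26 for RRM1, 0.27 for RRM2, 0.0693 for TOP2A, 0.30 for TPX2, 0.26 for TTK and 0.21 for TYMS.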
